A study of Homo sapiens with 7 samples.

Results

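The 54 genes described here are transcribed in cells that copy their DNA or divide, and they were measured in ACHN renal cell carcinoma cells with and without overexpressed HOTAIR. They were taken from a list of gene names, 27 for S phase and 27 for mitosis, and every non-control probe of the array carrying such a name was used. This gave 64 probes of 53 genes, and the probe of CDK1, which the array lists under the older name CDC2, brought them to 65 probes of 54 genes, among 42405 probes with 34809 gene names in all. All 54 genes lay above background on all 7 arrays, and all 65 probes were among the 20419 that were tested. The control was 4 samples of ACHN cells carrying the empty pBabe-hygro retrovirus (EV 1 to 4), and 3 samples carried the same retrovirus with HOTAIR cDNA (HOTAIR 1 to 3). Both groups were selected with hygromycin, so the viral backbone and the drug were shared. ACHN is an established line from a human renal cell adenocarcinoma. The labels do not say whether samples of a group were separate cultures or infections, so the p-values measure the spread between these samples, which may be technical.

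A cell prepares for S phase by loading the MCM helicase onto replication origins with the help of ORC1, CDC6 and CDT1, while geminin (GMNN) blocks CDT1 so that an origin fires only once. The E2F factors switch on these genes together with the enzymes that make deoxynucleotides and the clamp and polymerases that copy DNA. Later, FOXM1 and the MuvB complex switch on the mitotic genes through short promoter elements called CHR, and cyclin B with CDK1, the Aurora and Polo kinases, the kinetochore and the spindle checkpoint then drive and supervise chromosome segregation. In a tumour line the transcripts of both waves are used as a readout of how many cells are cycling. In bulk RNA fewer cycling cells and less mRNA per cycling cell cannot be told apart.

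The promoters of both subgroups were read first, because they show what the members share beyond their names. RefSeq promoter sequences (GRCh38.p14, 250 bases before to 50 after the gene start) were found for 46 of the 54 genes, 24 for S phase and 22 for mitosis. Those of CCNE2, MCM4, MCM5, AURKA, BIRC5, FOXM1, TPX2 and TTK were not in the table. A stretch of 120 bases is shown for 3 S-phase genes with the E2F motif in capitals (TTCCCGC, and likewise TTCGCGC, and likewise TTGCCGC, and likewise TTGGCGC, on either strand) and for 3 mitotic genes with the CHR motif (TTTGAA, and likewise TTCGAA) and the CCAAT box in capitals, also on either strand. MCM6, a subunit of the replicative helicase, is shown from chr2:135876475-135876594 on the minus strand, CDC25A, a phosphatase that activates CDK2, from chr3:48188418-48188537 on the minus strand, and CDT1, the licensing factor, from chr16:88803669-88803788 on the plus strand. TOP2A, the topoisomerase that untangles sister DNA, is shown from chr17:40417937-40418056 on the minus strand, CCNB2, a B-type cyclin, from chr15:59105026-59105145 on the plus strand, and CDC20, the activator of the anaphase-promoting complex, from chr1:43358861-43358980 on the plus strand.
MCM6: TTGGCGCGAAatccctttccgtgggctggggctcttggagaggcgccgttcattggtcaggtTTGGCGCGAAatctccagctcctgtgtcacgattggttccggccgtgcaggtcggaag
CDC25A: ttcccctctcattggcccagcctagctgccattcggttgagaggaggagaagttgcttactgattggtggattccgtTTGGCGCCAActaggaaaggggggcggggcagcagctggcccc
CDT1: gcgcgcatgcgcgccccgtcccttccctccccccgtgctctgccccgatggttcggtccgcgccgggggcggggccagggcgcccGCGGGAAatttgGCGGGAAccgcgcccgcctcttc
TOP2A: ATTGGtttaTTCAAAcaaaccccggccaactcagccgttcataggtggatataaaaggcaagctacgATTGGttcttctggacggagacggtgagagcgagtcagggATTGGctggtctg
CCNB2: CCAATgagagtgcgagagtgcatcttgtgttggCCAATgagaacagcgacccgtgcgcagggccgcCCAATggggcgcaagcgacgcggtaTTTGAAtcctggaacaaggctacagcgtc
CDC20: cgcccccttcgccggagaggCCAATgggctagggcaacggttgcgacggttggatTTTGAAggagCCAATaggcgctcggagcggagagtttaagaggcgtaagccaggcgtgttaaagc

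The E2F motif was present in 19 of 24 S-phase promoters (79.2%) and in 6 of 22 mitotic promoters (27.3%), where 13% of all 35116 promoters and 17.1% of the 15843 promoters of protein-coding genes held it. The order was turned for the CHR motif, which was present in 16 of 22 mitotic promoters (72.7%) and in 2 of 24 S-phase promoters (8.33%), beside 16.4% of all and 13.5% of protein-coding promoters. The CCAAT box was present in 77.3% of the mitotic and 58.3% of the S-phase promoters, beside 34.6% of all promoters. CHR and CCAAT stood in the same window in 13 mitotic promoters (59.1%), beside 6.38% of all promoters. The median position of the E2F matches in S-phase promoters was -32 bases from the gene start, and that of the CHR matches in mitotic promoters was -28.5 bases. Matches on opposite strands that overlap were counted separately, so that the 4 matches of MCM6 lie in 2 stretches and the 2 of CDC25A in 1 stretch, while the 2 of CDT1 are apart. CCAAT boxes of S-phase genes stand in lower case in the stretches shown. The genes shown were those with the most matches before the gene start, with ties taken in order of name. For mitotic genes CHR and CCAAT matches were counted together and a CHR match was required. Each stretch was the one with the most matches. They are therefore not typical, and 10 of the 24 S-phase promoters held 2 or more E2F matches. The shares given here describe letters in a window and were not tested.

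**Figure D1:**
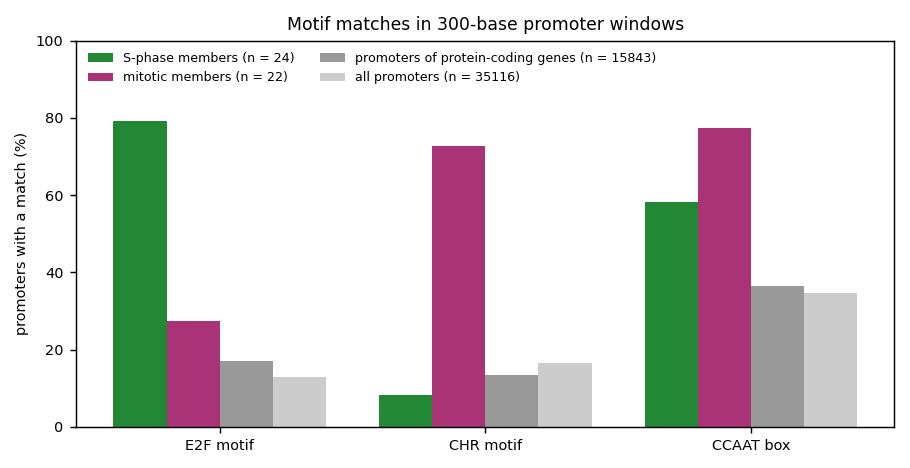
Share of promoters (%) with at least 1 match to the E2F motif, the CHR motif or the CCAAT box among S-phase members (n = 24), mitotic members (n = 22), promoters of protein-coding genes and all promoters. The E2F bar is highest for the S-phase genes at 79.2% and the CHR bar for the mitotic genes at 72.7%.

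The targeted RNA was measured as the labels say. The HOTAIR probe was not above background on any of the 4 EV arrays and was above it on all 3 HOTAIR arrays. PAX8, PAX2, KRT8 and KRT18, markers of kidney epithelium, had a probe above background on all 7 arrays. The array annotation places the KRT8 probes on chromosomes 8 and 1 and the KRT18 probes on chromosomes Y and 4. Signal from copies of these sequences cannot be told apart from that of the keratin genes. CD3E, COL1A1, DCN, LUM and VWF had no probe above background on any array. The leukocyte gene CD14 was above background on all 7 arrays. The remaining markers of other cells, PTPRC, PECAM1 and CDH5, each had a probe above background on some arrays, in the case of CDH5 on 3 EV arrays and 1 HOTAIR array. The part of these markers in the members' values was not tested. The 75th percentile of intensity, which was used to scale the arrays, lay between 523 and 649. All 7 arrays came from 1 slide, and the groups lay in different rows of it, so that row and group cannot be told apart. EV 2 stood apart from all other arrays (74.0 on the first principal component, which held 51.8% of the variance, against -18.1 to -8.50 for the other EV arrays), and HOTAIR 3 lay at 21.1 against -29.4 and -21.3 for HOTAIR 1 and 2.

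The comparison of HOTAIR with EV samples asks whether ACHN cells transcribe their replication and mitosis genes at another level when HOTAIR is overexpressed. No member passed an adjusted p of 0.05 (0 of 54), where 34 of 20419 tested probes (0.167%) did, 27 of them higher in HOTAIR (0.132%) and 7 lower (0.0343%). Each gene is represented by its brightest tested probe unless another is named. The lowest adjusted p was 0.753 (TOP2A, limma). Of all 65 member probes 0 passed, and 2 had an unadjusted p under 0.05, that of TOP2A and the dimmer probe of CCNE2, where 5.85% of all tested probes did. The rank product likewise called 0 members, with a lowest estimated share of false positives of 0.921, and so did the exact Mann-Whitney U test, which cannot go below p = 0.0571 with 4 against 3 arrays. The log2 differences (HOTAIR minus EV) of the 54 representing probes ran from -0.32 for TOP2A to 0.31 for AURKB with a median of -0.03, and 24 were positive and 30 negative. The median over all tested probes was 0.01, and 52.8% of them were positive.

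The intervals show how large a difference the spread between these samples could have hidden. They are intervals of single genes, not adjusted for their number. Since that spread may be technical, they may not bound the difference between separate cultures. The 95% interval of the fold difference lay within 2-fold in either direction for 53 of the 54 members, beside 87.0% of all tested probes. It lay within 1.5-fold for 42 members, beside 58.1% of the probes. These sets are unlike, since each member is represented by its brightest probe and lay above background on all 7 arrays. Of the 20419 tested probes 19181 did so. The part of signal level in these shares was not tested. The exception at 2-fold was AURKB, the kinase of the chromosomal passenger complex, whose log2 interval ran from -1.13 to 1.75. Among the 27 S-phase genes 13 differences were positive and 14 negative, with a median of -0.03 and all 27 intervals within 2-fold. Among the 27 mitotic genes 11 were positive and 16 negative, with a median of -0.02 and 26 intervals within 2-fold. With EV 2 and HOTAIR 3 both left out, the medians were -0.03 for S phase and -0.01 for mitosis, and again 0 members passed, with a lowest adjusted p of 0.326 in limma.

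**Figure D2:**
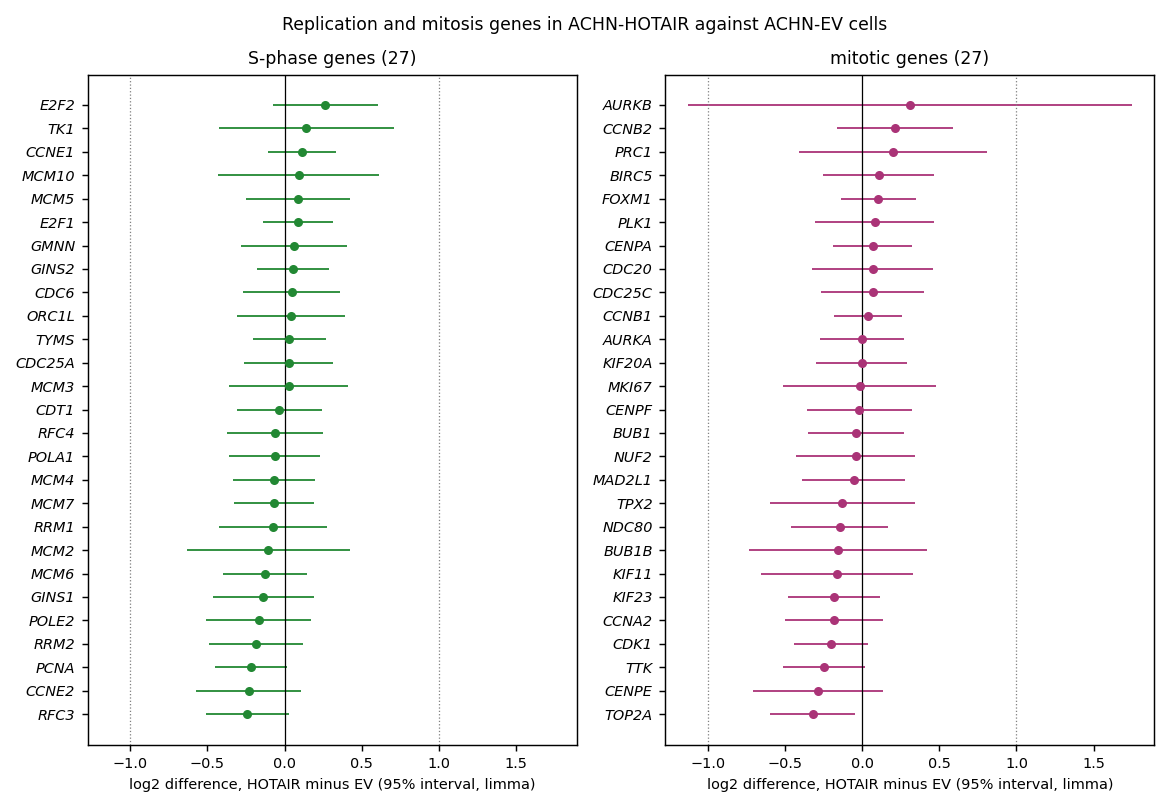
Log2 difference between HOTAIR (n = 3) and EV (n = 4) samples for the 27 S-phase and 27 mitotic genes, each with its 95% interval from limma. The solid line marks no difference and the dotted lines a 2-fold difference. Every interval except that of AURKB stays between the dotted lines.

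The S-phase genes were read by their roles. Of the 5 genes that start the programme, CCNE1, CCNE2, CDC25A, E2F1 and E2F2, 4 had a positive difference, and the values ran from -0.23 to 0.26. E2F2, an activating E2F factor, read 0.46, 0.09, 0.56 and 0.41 on EV 1 to 4 and 0.50, 0.79 and 0.64 on HOTAIR 1 to 3, in log2 units relative to the array's 75th percentile. Its groups overlapped, since HOTAIR 1 lay under EV 3, and the difference of 0.26 had an interval of -0.07 to 0.60 and an adjusted p of 0.932 (limma). CCNE1, which encodes cyclin E1, differed by 0.11, and CCNE2, the gene of cyclin E2, by -0.23. CCNE2 read 0.08, 0.38, 0.09 and -0.14 on the EV arrays and -0.19, 0.02 and -0.21 on the HOTAIR arrays, with overlapping groups. Its dimmer probe, at base 1149 of the transcript, read -2.82, -3.07, -2.69 and -3.25 on the EV arrays and -3.30, -3.29 and -3.49 on the HOTAIR arrays. On that probe the groups did not overlap, and the difference of -0.40 (interval -0.77 to -0.04) had an adjusted p of 0.779 in limma.

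The licensing genes CDC6, CDT1, GMNN and ORC1L, the array's name for ORC1, stayed, together with MCM10, within -0.03 to 0.09. MCM10, which helps to activate the loaded helicase, read -0.74, -0.05, -1.02 and -0.78 on the EV arrays and -0.58, -0.64 and -0.45 on the HOTAIR arrays. EV 2 lay above every other array for this gene, and the difference of 0.09 turned to -0.03 without EV 3. The 6 subunits of the MCM helicase had differences between -0.13 (MCM6) and 0.09 (MCM5), 2 positive and 4 negative. MCM2 read 2.77, 3.58, 2.75 and 2.96 on the EV arrays against 2.84, 2.72 and 3.17 on the HOTAIR arrays. Here too EV 2 was the highest array, and the difference of -0.11 became 0.08 without it. GINS1 and GINS2, subunits of the complex that joins the helicase to the polymerase, differed by -0.14 and 0.05.

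The clamp PCNA, the clamp loaders RFC3 and RFC4 and the polymerase subunits POLA1 and POLE2 all had negative differences, from -0.24 to -0.06, and 0 of 5 passed the test. POLA1 turned positive with another background correction, and POLA1 and RFC4 when single arrays were left out. PCNA read 4.73, 4.93, 4.82 and 4.79 on the EV arrays and 4.57, 4.65 and 4.59 on the HOTAIR arrays. All 3 HOTAIR values lay under all 4 EV values, and the difference was -0.22 (interval -0.45 to 0.02), a fold of 0.861. Its adjusted p was 0.896 in limma, and the exact two-sided permutation test of the single gene gave p = 0.0286, the smallest that 35 splits allow. That permutation p is not adjusted for the number of genes. The other PCNA probe read 4.43, 3.97, 4.43 and 3.81 on the EV arrays and 4.23, 4.21 and 3.77 on the HOTAIR arrays, and there the groups overlapped and the difference was -0.09 (interval -0.57 to 0.39). RFC3, a clamp loader subunit, read 0.76, 0.90, 0.76 and 0.56 on the EV arrays and 0.54, 0.44 and 0.53 on the HOTAIR arrays. The groups were apart by a narrow margin between EV 4 and HOTAIR 1, and the difference was -0.24 (interval -0.51 to 0.03, adjusted p = 0.906 in limma). On the other RFC3 probe, which is annotated to another transcript, the groups overlapped and the difference was -0.03 (interval -0.52 to 0.45).

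Of the genes for deoxynucleotide synthesis, RRM1 and RRM2, which encode ribonucleotide reductase, differed by -0.08 and -0.19, and thymidylate synthase (TYMS) by 0.03. RRM2 read 2.82, 2.65, 2.72 and 2.77 on the EV arrays and 2.52, 2.34 and 2.79 on the HOTAIR arrays. Its groups overlapped through HOTAIR 3. TK1, the thymidine kinase of S phase, read 6.22, 5.52, 6.11 and 6.35 on the EV arrays and 6.40, 6.40 and 5.77 on the HOTAIR arrays. EV 2 and HOTAIR 3 were the lowest arrays of their groups, and the difference of 0.14 became -0.04 without EV 2.

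Of the mitotic genes, the 6 around CDK1 had 4 positive and 2 negative differences, from -0.20 to 0.22. CDK1, the kinase that drives entry into mitosis, read 3.51, 3.57, 3.56 and 3.49 on the EV arrays and 3.21, 3.34 and 3.45 on the HOTAIR arrays. The groups did not overlap, and the difference of -0.20 (interval -0.44 to 0.04) had an adjusted p of 0.926 in limma. The exact permutation p, unadjusted, was 0.0286. Of the B-type cyclin genes, CCNB1 differed by 0.04 (interval -0.18 to 0.26) and CCNB2 by 0.22 (interval -0.16 to 0.59), the latter reading 3.35, 3.32, 3.13 and 2.75 on the EV arrays and 3.31, 3.43 and 3.32 on the HOTAIR arrays. CCNA2, the cyclin of S phase and early mitosis, differed by -0.18, CDC25C, which activates CDK1, by 0.07, and FOXM1, the transcription factor of the mitotic genes, by 0.11.

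TOP2A had the most negative difference of the representing probes. It read 1.88, 1.62, 1.89 and 1.76 on the EV arrays and 1.38, 1.41 and 1.60 on the HOTAIR arrays. The groups were apart, with EV 2 and HOTAIR 3 next to each other, and the fold of HOTAIR over EV was 0.801 (interval 0.661 to 0.970). The adjusted p was 0.753, and it ranged from 0.0372 to 1.00 over the alternatives run. The value of 0.0372 came from limma with array weights, the only 1 of 1026 member values over 19 settings to pass. In that setting EV 2 had a weight of 0.199 and EV 3 a weight of 3.45. It called 1 of the 54 members, beside 324 of all 20419 tested probes. MKI67, the proliferation marker Ki-67, differed by -0.02 (interval -0.51 to 0.48).

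Of the 54 representing probes, those of TOP2A, RFC3, PCNA and CDK1 had groups that did not overlap, all with HOTAIR lower. With the dimmer CCNE2 probe these were 5 of the 65 member probes (7.69%). Over all tested probes, 7.70% did not overlap in either direction, 3.50% with HOTAIR lower and 4.20% with HOTAIR higher. The exact permutation p was 0.0286 for PCNA and CDK1 and 0.0571 for TOP2A, RFC3 and the dimmer CCNE2 probe. It was not adjusted for the number of genes, and the share of all tested probes at these values was not computed.

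The kinase genes AURKA, AURKB and PLK1 and the passenger subunit gene BIRC5 had differences from 0.00 to 0.31, of which all except BIRC5 changed sign in some setting. AURKB read 1.51, -0.92, 1.50 and 0.75 on the EV arrays and 1.50, 1.31 and 0.25 on the HOTAIR arrays. EV 2 lay far under the other EV arrays and HOTAIR 3 under the other HOTAIR arrays. The only AURKB probe lies at base 238 of the transcript, nearer the start than any other member probe. On these 2 arrays probes near the transcript start read lower over the whole array, as described below. The part of the probe's position in the AURKB values was not tested. The difference of 0.31 became -0.23 without EV 2 and 0.70 without HOTAIR 3, so its sign was not settled. BIRC5, which encodes survivin, read 4.72, 4.22, 4.56 and 4.64 on the EV arrays and 4.81, 4.65 and 4.46 on the HOTAIR arrays, a difference of 0.11 with overlapping groups.

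The checkpoint genes BUB1, BUB1B, MAD2L1 and TTK had negative differences and CDC20 a positive one of 0.07, though all of these except TTK changed sign in some setting. TTK, the MPS1 kinase at the head of the checkpoint, read 1.04, 0.94, 0.96 and 0.73 on the EV arrays and 0.64, 0.62 and 0.75 on the HOTAIR arrays. Only HOTAIR 3 and EV 4 overlapped, and the difference of -0.25 had an interval of -0.52 to 0.02 and an adjusted p of 0.891 (limma). BUB1B, which encodes BubR1, read 1.29, 2.14, 1.30 and 1.45 on the EV arrays and 1.18, 1.23 and 1.75 on the HOTAIR arrays. Its difference of -0.16 became 0.04 without EV 2.

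The 5 centromere and kinetochore genes ran from -0.29 to 0.07. CENPE, a kinetochore motor, read 1.23, 1.57, 1.42 and 1.10 on the EV arrays and 0.73, 1.05 and 1.35 on the HOTAIR arrays, with overlapping groups and an interval of -0.71 to 0.14. CENPA, the histone variant of the centromere, differed by 0.07, NDC80 and NUF2, subunits of the microtubule-binding complex, by -0.15 and -0.04, and CENPF by -0.02. Among the spindle genes, KIF11, KIF20A, KIF23 and TPX2 had negative differences and PRC1 a positive one, of which KIF20A, TPX2 and PRC1 changed sign in some setting. PRC1, which bundles microtubules in the midzone, read 4.29, 4.61, 4.15 and 3.51 on the EV arrays and 4.12, 4.28 and 4.63 on the HOTAIR arrays. EV 4 was its lowest array, and the difference of 0.20 was -0.01 without it.

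**Figure D3:**
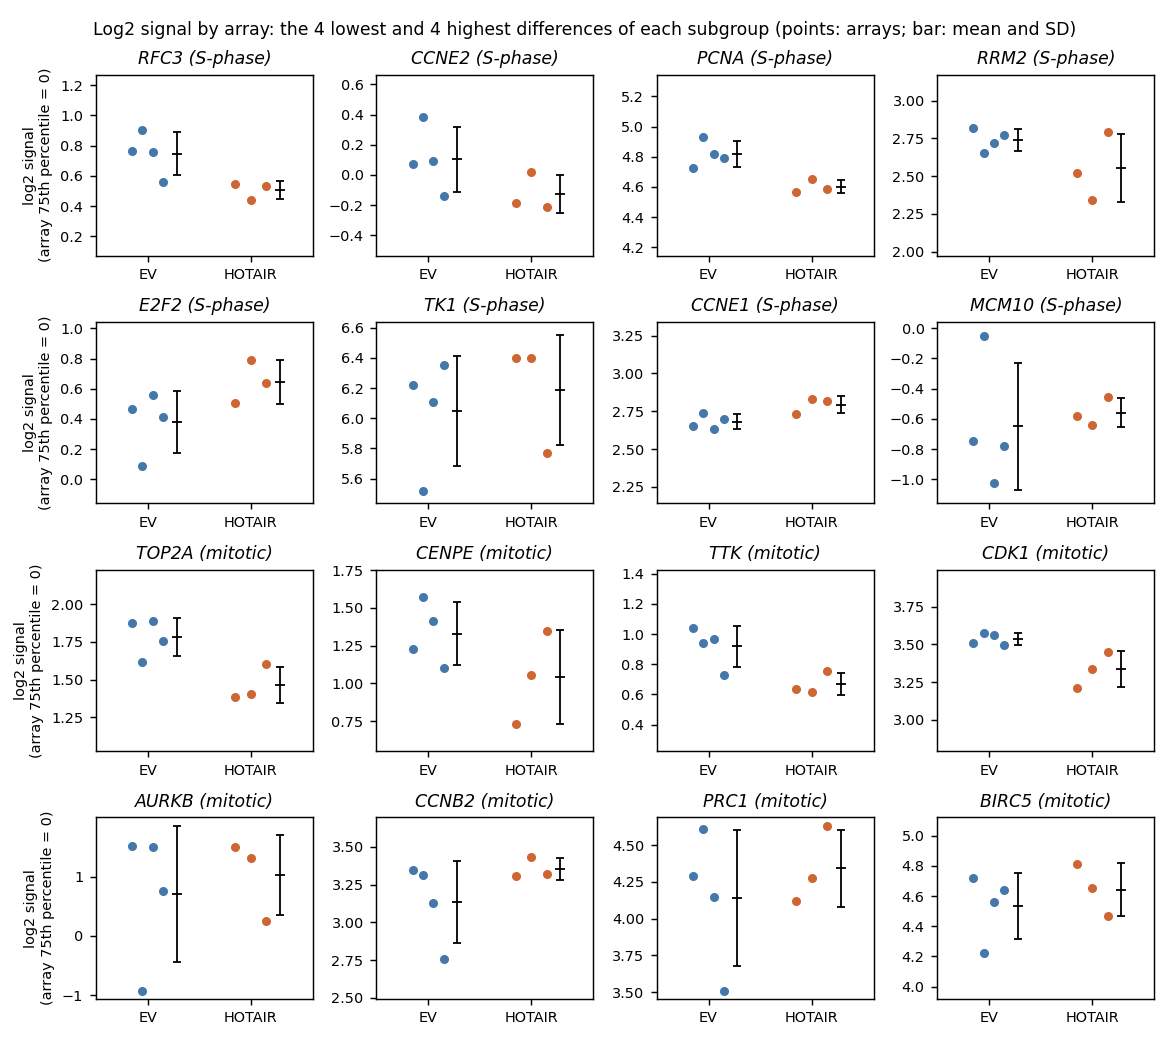
Log2 signal, with each array's 75th percentile set to 0, on each EV (blue) and HOTAIR (orange) array for the 4 most negative and the 4 most positive differences of each subgroup. Bars give the mean and SD of each group, and each panel has its own range. The groups are apart only in the panels of RFC3, PCNA, TOP2A and CDK1, and EV 2 lies lowest by far for AURKB.

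The members also varied within the groups. For each gene the mean of its group was subtracted, and the deviations were read array by array. On EV 2, 21 of the 27 mitotic genes lay above their group mean, with a median deviation of 0.19, where 48.2% of all tested probes lay above it. On HOTAIR 3, 20 of 27 did, with a median of 0.12, where 48.3% of all tested probes did. The S-phase members did not follow, with 12 of 27 above the mean on EV 2 (median -0.04) and 9 of 27 on HOTAIR 3 (median -0.03). EV 4 was the reverse for the mitotic genes, 5 of 27 of which lay above the mean, where 56.4% of all tested probes did.

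Among the members with the highest deviations on EV 2 were MCM10 (0.60), BUB1B (0.59), MCM2 (0.56), MKI67 (0.55), TPX2 (0.48), PRC1 (0.47) and KIF11 (0.44). The lowest were AURKB (-1.63), TK1 (-0.53) and BIRC5 (-0.31). The other mitotic genes of a wider list showed a smaller median of 0.08 on EV 2 and 0.05 on HOTAIR 3, with 40 of 62 genes above the mean on each. The other S-phase genes of that list had a median of 0.04 on EV 2, with 26 of 46 genes above the mean. On HOTAIR 3 their median was 0.000152, with 23 of 46 above it. On EV 2 the median was thus positive for these genes and negative for the S-phase members. Over the 7 arrays the mean correlation between deviations of a pair of mitotic genes was 0.190, that of a pair of S-phase genes 0.0145 and that across the subgroups -0.03, beside 0.00350 for all tested probes. These correlations describe 7 arrays and share the same scaling.

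**Figure D4:**
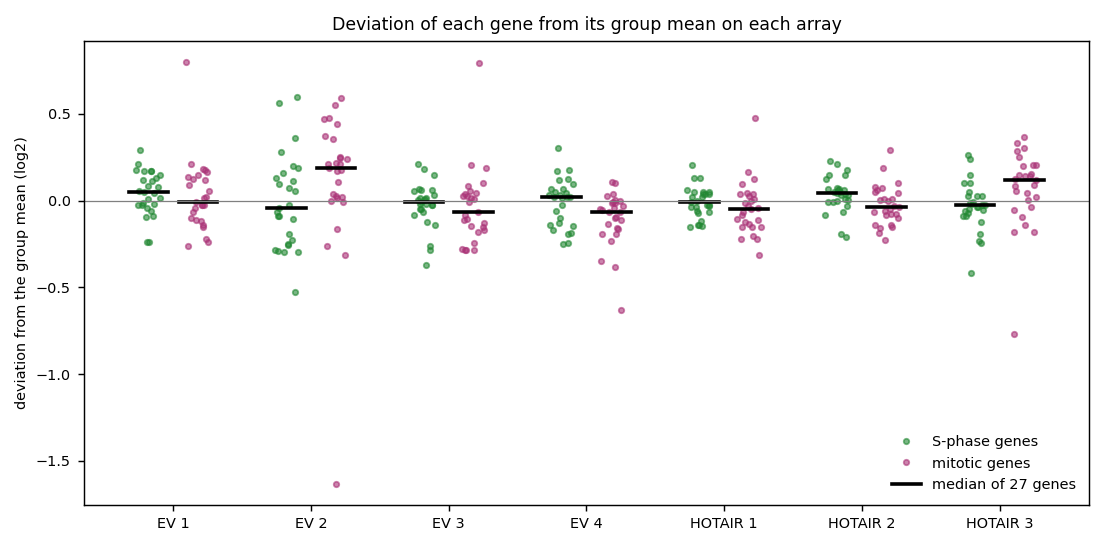
Deviation of each of the 27 S-phase (green) and 27 mitotic (purple) genes from the mean of its group on each array, in log2 units, with the median as a black bar. The mitotic medians of EV 2 (0.19) and HOTAIR 3 (0.12) stand above 0, and the single low point of EV 2 is AURKB (-1.63).

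EV 2 and HOTAIR 3 differed from the other arrays along the transcripts as well, which bears on the members with several probes. Over 1777 genes of the array with probes at least 500 bases apart on the same transcript, the deviation of the probe nearer the transcript start minus that of the probe nearer its end had a median of -0.29 on EV 2 and -0.20 on HOTAIR 3. The medians of the other 5 arrays lay between 0.05 and 0.16. Of the 10 members with several tested probes, the probe nearer the start had the lower deviation in 8 on EV 2 and in 9 on HOTAIR 3. On the other arrays this was so in 0 to 5 of them. Not all of these pairs meet the rule used for the 1777 genes. The probes of MCM5 and PCNA lie less than 500 bases apart, and those of MCM7 and RFC3 are annotated to different transcripts. The part of these differences along the transcript in the members' deviations was not tested.

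The sequences of 4 such probes are shown, since the readings of the same gene turned on them. They are the 2 MKI67 probes at bases 1614 (chr10:129913193-129913252, minus strand) and 2659 (chr10:129907580-129907639, minus strand) of the transcript, the MCM5 probe at base 1736 (chr22:35813789-35813848, plus strand) and the PLK1 probe at base 646 (chr16:23692251-23692310, plus strand), all on hg19 as the array annotation gives them.
MKI67 1614: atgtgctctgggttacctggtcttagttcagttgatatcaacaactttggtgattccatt
MKI67 2659: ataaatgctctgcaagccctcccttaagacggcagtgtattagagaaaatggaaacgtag
MCM5 1736: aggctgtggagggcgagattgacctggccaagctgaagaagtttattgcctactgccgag
PLK1 646: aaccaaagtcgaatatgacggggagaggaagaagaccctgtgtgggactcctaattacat

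The MKI67 probe at base 2659 read 0.67, 1.46, 0.73 and 0.77 on EV 1 to 4 and 0.83, 0.75 and 1.10 on HOTAIR 1 to 3, so that EV 2 was the highest EV array. The probe at base 1614 read 0.72, 0.14, 0.67 and 0.11 on the EV arrays and 0.54, 0.65 and 0.18 on the HOTAIR arrays, with EV 2 among the lowest. The remaining MKI67 probe at base 11719 read -1.31, -0.34, -0.98 and -0.80 on the EV arrays and -1.11, -1.09 and -0.65 on the HOTAIR arrays. The same marker was therefore high or low on EV 2 and HOTAIR 3 according to the probe, and its differences between the groups were -0.02, 0.05 and -0.09.

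The MCM5 probe at base 1736 read 0.89, -0.54, 0.81 and 0.71 on the EV arrays and 1.14, 1.02 and 0.28 on the HOTAIR arrays, whereas the brighter MCM5 probe at base 2169 read 2.46, 2.66, 2.19 and 2.59 on the EV arrays. The low value of EV 2 was thus seen with the former only. The PLK1 probe at base 646 read -1.75, -3.24, -1.93 and -2.07 on the EV arrays and -1.54, -1.94 and -2.46 on the HOTAIR arrays. The PLK1 probe at base 1633, which represents the gene here, is placed by the array annotation on chromosome 8 and not on chromosome 16 as the other, so that signal from a copy of the sequence cannot be told apart from that of PLK1. MCM7 had probes on 2 transcripts with differences of opposite sign, -0.07 (interval -0.33 to 0.19) at base 2724 and 0.16 (interval -1.42 to 1.74) at base 661. CENPF was the remaining gene with probes of opposite sign, -0.02 and 0.08.

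**Figure D5:**
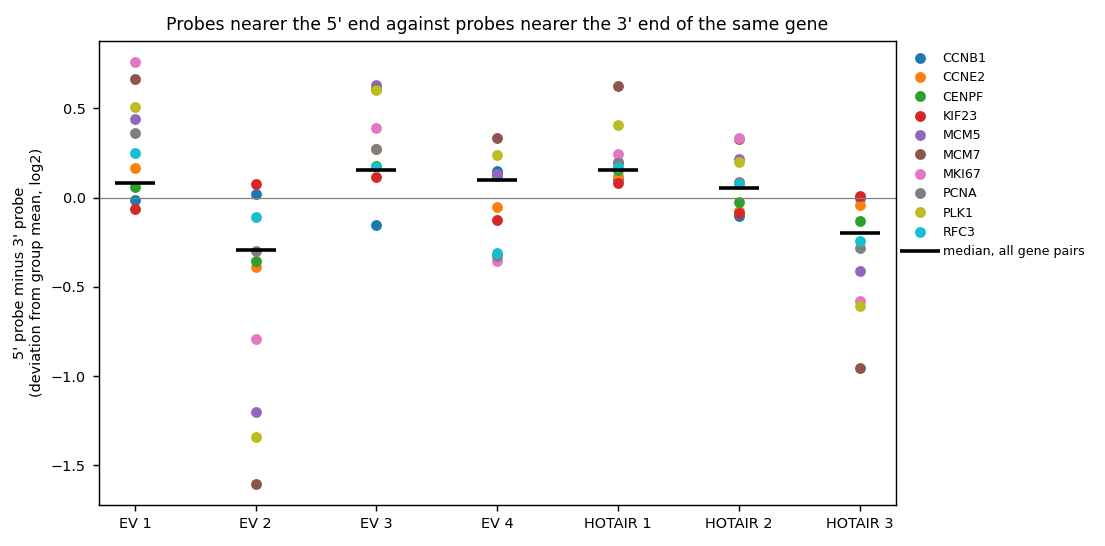
Deviation from the group mean (log2) of the probe nearer the transcript start minus that of the probe nearer its end, for the 10 members with several tested probes (points) on each array, and the median over 1777 genes of the array (black bars). The points of MCM7, PLK1, MCM5 and MKI67 reach -1.60, -1.34, -1.20 and -0.79 on EV 2. The probes of MCM5 and PCNA lie less than 500 bases apart, and those of MCM7 and RFC3 are annotated to different transcripts, unlike the pairs of the 1777 genes.

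A wider list of 109 genes of the same processes held 46 further S-phase and 63 further mitotic genes, of which 108 were tested. None of them passed an adjusted p of 0.05 (0 of 108, limma, with 4 at an unadjusted p under 0.05), and their median difference was -0.03. PTTG1, which encodes securin, read 4.89, 5.01, 4.78 and 4.89 on the EV arrays and 5.21, 5.29 and 5.32 on the HOTAIR arrays. All HOTAIR values lay above all EV values, with a difference of 0.38 and an adjusted p of 0.457 in limma. It was the most positive of the mitotic genes on this list, and PTTG1 has near-identical copies that a probe may also read. The most negative were ECT2, the exchange factor that sets the cleavage plane, at -0.43, KIF15, a spindle motor, at -0.37, and MCM8, a helicase of DNA repair, at -0.36. CLSPN, which encodes the checkpoint adaptor claspin, differed by 0.40. Of 10 cell cycle inhibitors and pocket protein genes 9 were tested and 0 passed (limma, 0 at an unadjusted p under 0.05). CDKN1A, which encodes the CDK inhibitor p21, read 0.00, -1.10, 0.27 and -0.01 on the EV arrays and 0.19, 0.00 and -0.81 on the HOTAIR arrays, again lowest on EV 2 and HOTAIR 3 and with a difference of 0.01.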

How the data were processed

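RNA was hybridised to Agilent 8 x 60K human arrays (SurePrint G3) in a single colour, with 1 array for each of 7 samples and 100 ng of labelled total RNA per the labels. The authors extracted the images with Agilent Feature Extraction 10.7.3.1 (per the file headers), and the deposited intensity of each spot is background-subtracted, not scaled between arrays. Samples were grouped by their labels.

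The log2 of the intensity was taken, the 75th percentile of each array's non-control spots was subtracted, 408 to 600 outlier spots per array were dropped, and replicate spots were averaged to a value per probe. A probe was tested if either group had it above background on all its arrays, using limma 3.58.1 (R 4.3.3; lmFit and eBayes, tested on simulated data) with Benjamini-Hochberg adjustment over all 20419 of them. The brightest tested probe stood for its gene. Single genes also had an exact two-sided permutation test over 35 splits. The number of arrays limits the precision. Genes named with values were the 4 most positive and 4 most negative of each subgroup, those whose groups did not overlap, those whose probes differed in sign, the 3 of each subgroup with the largest EV spread and examples of each role. The members and lists were chosen with earlier results of these data known. Alternatives covered background correction, scaling, the filter, the choice of probe, the moderation, array weights, the rank product (100 permutations), the Mann-Whitney U test and each array left out in turn. Motifs were searched on both strands of RefSeq promoters. A marker gene of the kidney list is not reported here. The array annotation is on hg19, the promoters on GRCh38.p14, and no coordinates were converted.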

Additional observations from a re-analysis of the deposited data

Results flagged for a closer look

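In groups of 4 arrays, a sample was noted when its gap to the nearest other array exceeded 0.829 of the whole range of the group. Of 68 groups 4 were noted, where chance gives about 1 in 20, or 3.4, and all 4 were on EV 2. The groups are made of the same 4 arrays, so the 4 are not independent of each other. The MCM5 probe at base 1736 read -0.54 on EV 2 and 0.71 to 0.89 on the other EV arrays (gap over range 0.876). The MCM7 probe at base 661 read -2.62 on EV 2 and -0.47 to -0.04 on the others (0.832). The MKI67 probe at base 2659 read 1.46 on EV 2 and 0.67 to 0.77 on the others (0.863). EV 2 stood apart in the same way on the first principal component of all tested probes, at 74.0 against -18.1 to -8.50 (0.896). That component is the direction of largest spread over these same arrays, so the rate of 1 in 20 does not hold for it.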

How the results depend on the processing

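No member passed an adjusted p of 0.05 in limma, the rank product or the Mann-Whitney U test under any setting run except array weights. There 1 of 54 members did (TOP2A, -0.44, adjusted p = 0.0372 in limma), beside 324 of 20419 tested probes. In the same setting 1 gene of the wider list did (PTTG1, 0.45, adjusted p = 0.0301 in limma). The count of all tested probes called, 34 as reported, was 12 with normexp background correction, 14 with no filter on dim probes, 22 with only probes above background on all arrays, 20 with trend and robust moderation, 324 with array weights, 85 with the rank product, 0 with the Mann-Whitney U test, which cannot reach the threshold with 7 arrays, and 9 to 30 with each array left out in turn. With the replicate number as a block it was 0 (1102 at an unadjusted p under 0.05). The replicate numbers were not taken to pair the samples, since the deviations of same-numbered arrays correlated at 0.386, -0.368 and -0.406. The cause of these shifts was not tested. The median difference of the S-phase members, -0.0334 as reported, was 0.00931 in the deposited table without scaling, 0.0264 with the mean of the probes of a gene and -0.0413 to 0.0105 with each array left out. That of the mitotic members ran from -0.0733 to 0.0318 with each array left out. All members were above background on every array.

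Of the 54 members, 30 changed sign in at least 1 setting. The largest reported size among them was 0.31 (AURKB). With normexp background correction, CDC6 was -0.0240, GINS1 0.0207, GMNN -0.0447, KIF20A 0.00810, MAD2L1 0.0444, MKI67 0.12, POLA1 0.0446 and RRM1 0.0349. With quantile normalization, AURKA was -0.00889, CDC6 -0.0227, MCM3 -0.00961 and TYMS -0.0271. With the 75th percentile over detected probes, KIF20A was 0.00544. With the median over detected probes, AURKA was -0.0141. In the deposited table without scaling, BUB1 was 0.00380, CDT1 0.00931, CENPF 0.0238, KIF20A 0.0419, MKI67 0.0296 and NUF2 0.000119. With EV 2 and HOTAIR 3 left out, AURKA was -0.0125, CDC25A -0.0477, CDC6 -0.0340, CDT1 0.00267, MKI67 0.0672, NUF2 0.0470 and RRM1 0.0788. With the replicate block, AURKA was -0.0631 and PRC1 -0.00753. With array weights, AURKA was -0.0449, AURKB -0.0727, BUB1 0.00125, CDC25A -0.0302, CDT1 0.00333, KIF20A 0.0163, MKI67 0.0570 and RRM1 0.11. With the mean of the probes of a gene, CENPF was 0.0326 and MCM7 0.0465. When single arrays were dropped, the difference of AURKA ran from -0.0631 to 0.0584, AURKB from -0.23 to 0.70, BUB1 from -0.12 to 0.0403, BUB1B from -0.34 to 0.0393, CDC20 from -0.0272 to 0.19, CDC25A from -0.0572 to 0.0699, CDC25C from -0.0359 to 0.15, CDC6 from -0.0520 to 0.10, CDT1 from -0.0796 to 0.0368, CENPF from -0.0906 to 0.0916, GMNN from -0.0265 to 0.18, KIF20A from -0.0733 to 0.0682 and MAD2L1 from -0.14 to 0.0154. In the same way that of MCM10 ran from -0.0325 to 0.29, MCM2 from -0.24 to 0.0815, MCM3 from -0.0535 to 0.15, MCM5 from -0.00689 to 0.15, MKI67 from -0.12 to 0.17, NUF2 from -0.16 to 0.0498, ORC1L from -0.0575 to 0.14, PLK1 from -0.0118 to 0.20, POLA1 from -0.12 to 0.00855, PRC1 from -0.00753 to 0.36, RFC4 from -0.14 to 0.0149, RRM1 from -0.19 to 0.0470, TK1 from -0.0361 to 0.35 and TPX2 from -0.25 to 0.0318. TOP2A, RFC3, PCNA and CDK1 kept their sign in all settings run, as did every other member outside these 30. Since the groups of TOP2A, RFC3, PCNA and CDK1 did not overlap, leaving out or weighting arrays could not have changed their sign.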
